A study of Mus musculus with 10 samples.

Results

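The genes of the Wnt pathway, from the secreted ligands to the transcription factors they act on, were followed in RNA-seq of osteocytes from mice with and without myeloma. The members were every gene whose symbol was Wnt or Fzd followed by a digit, together with Lrp4, Lrp5, Lrp6, Ror1, Ror2, Ctnnb1, Axin1, Axin2, Apc, Gsk3b, Tcf7, Tcf7l1, Tcf7l2 and Lef1. They numbered 42 of the 22548 genes in the count table: 18 ligands, 10 Frizzled receptors, 5 LRP and ROR receptors, 5 genes of the beta-catenin branch and 4 TCF and LEF factors. Wnt7a was not analysed here. The filter on low counts kept 35 of the 42, and the other 7 are given by their counts only.

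The 5 MM mice had received Vk12598 cells, a murine myeloma line, by injection into the femur, and the 5 No MM mice were controls without myeloma cells. The study's methods state that control mice were given PBS. All mice were labelled as C57BL/6, male and 8 weeks old, and the osteocytes came from bone pieces cleared of marrow and digested repeatedly with collagenase and EDTA. Each mouse gave 1 library, mice 1 to 5 being No MM and mice 6 to 10 being MM, with 31099174 to 39466332 counted reads per library. The comparison asked which transcripts of osteocytes differ in the presence of myeloma.

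In the canonical branch of the pathway, a Wnt ligand binds a Frizzled receptor and an LRP co-receptor, the destruction complex that holds beta-catenin low is switched off, and beta-catenin enters the nucleus to act with TCF and LEF factors. Other ligands, with Wnt5a as the textbook case, signal through ROR receptors without beta-catenin. Bone is among the tissues most sensitive to the pathway: osteocytes secrete its inhibitor sclerostin, loss of LRP5 gives fragile bone, and inherited defects of WNT1 cause osteogenesis imperfecta.

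A pair of control libraries stood apart before any comparison. Immunoglobulin genes took 26.6% of the counts in No MM 3 and 29.0% in No MM 4, against 0.636% to 3.86% in the other 8 libraries. The 7 plasma cell markers summed to 9265 and 9283 counts per 1000000 (CPM) there and to between 583 and 1266 CPM elsewhere, with 6 of the 7 above the other 8 libraries and Mzb1 overlapping. The 8 osteoblast markers summed to 3009 and 1810 CPM there and to between 12574 and 47416 CPM elsewhere, with 7 of the 8 below and Alpl overlapping. Most markers of several other lists were also lower in the pair. Of the 8 neutrophil markers, summing to 7230 and 8552 CPM against 10355 to 33268 CPM elsewhere, 7 were below the other 8 libraries. So were 5 of 6 erythroid markers, 4 of 7 T and NK cell markers and 3 of 4 megakaryocyte markers. Of the 8 B cell markers 7 were below, but Cd79b was above, at 166 and 213 CPM against 60.9 to 123 CPM. The B cell sums of 183 and 227 CPM overlapped the 203 to 482 CPM elsewhere. All 6 osteocyte markers were detected in every library, and they summed to between 308 and 2417 CPM in No MM and between 382 and 1703 CPM in MM. Within No MM, No MM 3 and No MM 4 had the lowest sums, 422 and 308 CPM, against 759 to 2417 CPM in the remaining controls. Of the 6, the 3 markers Dmp1, Phex and Pdpn were below the other 8 libraries in the pair, and the rest overlapped. Marrow stroma markers summed to 369 and 491 CPM in the pair and to 1124 to 2475 CPM elsewhere, with 2 of 4 below. Dendritic cell markers summed to 20.1 and 23.0 CPM in the pair and to 37.2 to 77.3 CPM elsewhere, with 3 of 5 below. Reads of Y-linked genes were seen at 142 to 176 CPM in No MM 5, MM 9 and MM 10 and at no more than 1.27 CPM in the other 7, where Xist stood at 36.2 to 718 CPM, against the label male for those 7. The part of plasma cell, other blood cell, marrow stroma, osteoblast and osteocyte reads in each result below was not tested. That of Y-linked reads was examined only where a value with a term for them is given. Values without No MM 3 and No MM 4 leave out the differences of the pair all at once and cannot tell these parts apart. In bulk samples, fewer cells of a type and less RNA per cell cannot be told apart.

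The upstream windows of members that the results turn on, or that hold the TCF and LEF motif, are shown first. Each is the 250 bases before a RefSeq start site in GRCm38.p6, written along the gene's strand, and capitals mark CTTTGAT, a form of the TCF and LEF core motif, or its reverse complement ATCAAAG. The motif was present in 2 of the 38 windows of the 29 members that have an entry, and in 3.21% of all 32851 windows. Wnt5b and Wnt11 hold it. Wnt6 was highest in No MM 3 and No MM 4, and Tcf7l2 had the highest positive fitted fold change of the members.
Wnt5b, chr6:119449387-119449636, minus strand: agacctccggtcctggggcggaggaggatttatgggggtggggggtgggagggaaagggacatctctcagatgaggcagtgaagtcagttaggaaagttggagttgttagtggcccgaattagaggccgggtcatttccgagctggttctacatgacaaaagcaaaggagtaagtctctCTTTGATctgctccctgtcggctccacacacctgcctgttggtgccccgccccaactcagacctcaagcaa
Wnt11, chr7:98834862-98835111, plus strand: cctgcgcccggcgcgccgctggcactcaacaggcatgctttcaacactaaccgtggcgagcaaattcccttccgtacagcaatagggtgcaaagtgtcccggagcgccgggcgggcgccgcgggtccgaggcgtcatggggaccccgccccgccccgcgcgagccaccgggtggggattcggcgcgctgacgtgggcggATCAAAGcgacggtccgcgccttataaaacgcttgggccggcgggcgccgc
Wnt6, chr1:74771642-74771891, plus strand: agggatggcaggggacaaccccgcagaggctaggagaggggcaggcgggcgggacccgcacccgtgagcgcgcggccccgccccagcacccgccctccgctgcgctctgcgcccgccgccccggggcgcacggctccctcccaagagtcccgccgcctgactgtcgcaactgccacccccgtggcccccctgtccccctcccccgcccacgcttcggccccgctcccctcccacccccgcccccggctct
Tcf7l2, chr19:55741560-55741809, plus strand: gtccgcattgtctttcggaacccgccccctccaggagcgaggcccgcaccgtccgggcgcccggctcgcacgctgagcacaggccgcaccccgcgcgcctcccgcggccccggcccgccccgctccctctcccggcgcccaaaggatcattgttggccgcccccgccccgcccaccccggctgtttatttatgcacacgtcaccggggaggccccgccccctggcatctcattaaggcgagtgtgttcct
The motif lies 71 bases before the start in Wnt5b, at the innermost of the 3 Wnt5b starts listed, and 51 bases before it in Wnt11. The windows of Wnt6 and Tcf7l2 do not hold these letters. By base composition, the Wnt6 window is 79.6% G and C with 28 CG pairs and the Wnt5b window shown 55.6% with 7. Wnt5b windows differ by start: those farther out, not shown, are 53.2% with 4 CG pairs and, at the outermost, 75.2% with 35. The median over all member windows was 70.8%. Wnt10a, Wnt5a, Wnt7b, Wnt8a, Fzd8, Fzd6, Fzd2, Fzd3, Lrp4, Lrp5, Lrp6, Axin1 and Apc have no entry.

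Levels were compared between genes as CPM per kilobase of the deposited gene length. Ctnnb1, which encodes beta-catenin, was far above every other member, at 181 ± 75.6 in No MM and 168 ± 54.4 in MM (SD, n = 5 each). Lrp4, the receptor that anchors sclerostin on bone cells, came next, at 14.8 ± 9.77 and 22.5 ± 16.3, followed by Axin1, a scaffold of the destruction complex, at 13.3 ± 2.60 and 14.4 ± 0.964, and by Tcf7, which encodes TCF1, at 9.46 ± 5.22 and 9.96 ± 3.002. The spread of Lrp4 covered the means of Axin1 and Tcf7 in both groups. Among the ligands, Wnt5b had the highest mean over all 10 libraries, 7.70, with 9.54 ± 1.26 in No MM and 5.86 ± 2.51 in MM, while Wnt10b and Wnt4 stood at means of 4.84 and 4.26 over all 10 libraries. The Wnt10a mean of 7.09, and of 13.6 in No MM, came from 2 libraries. Fzd5, Fzd4, Fzd7 and Fzd1 had means between 3.16 and 4.95 over all 10 libraries, and the remaining tested Frizzled genes were lower. Wnt1 and Wnt16 were near the bottom at 0.368 and 0.355, next to Wnt11 at 0.362. Axin2, the feedback gene that beta-catenin switches on, averaged 0.871.

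**Figure D1:**
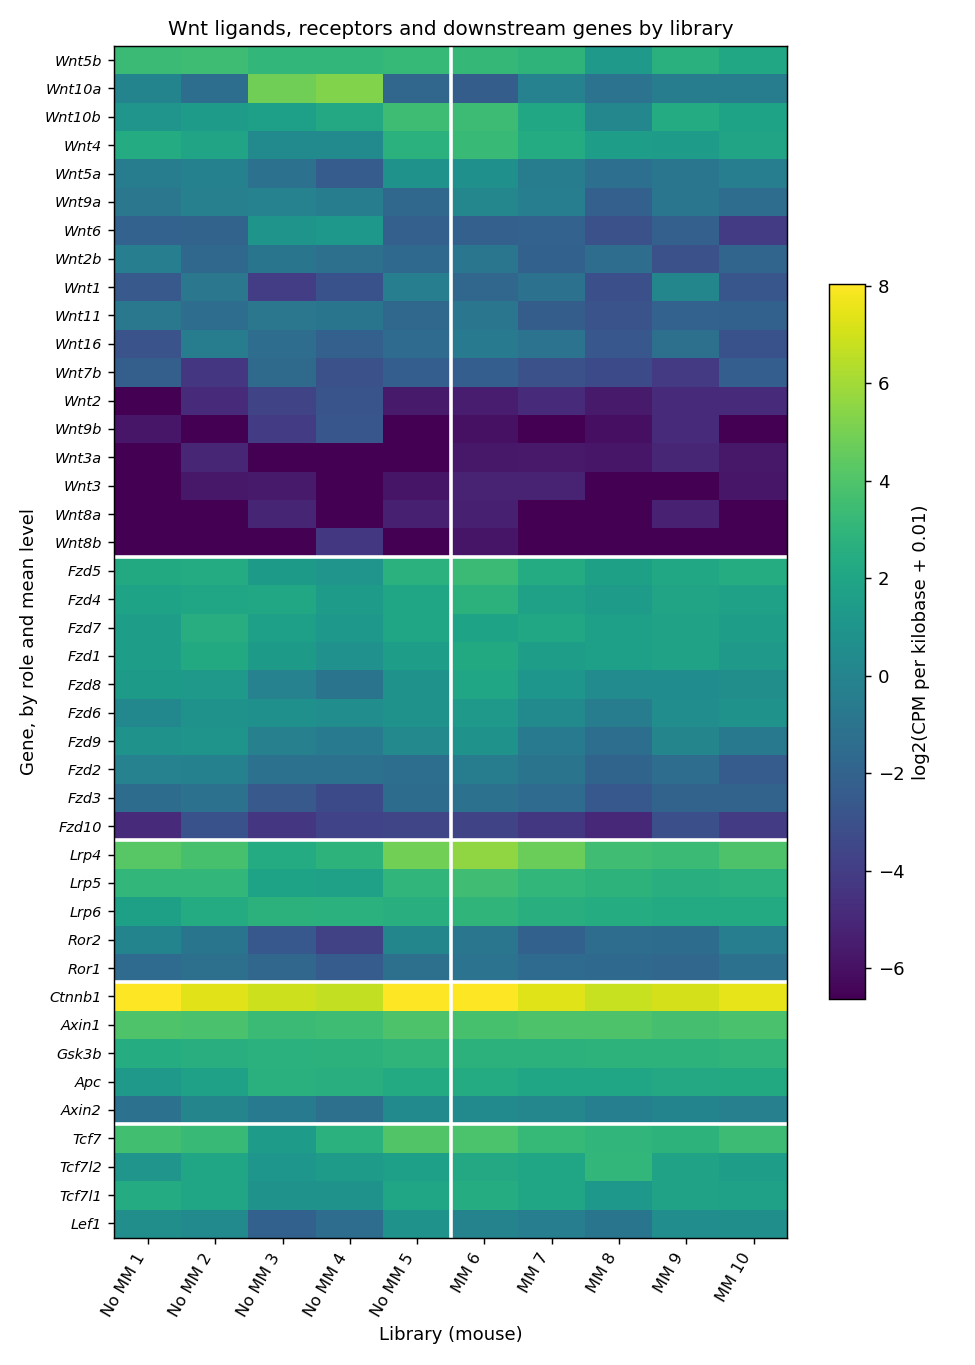
Level of all 42 members in each library, as log2 of CPM per kilobase plus 0.01, with white lines between the roles and between No MM (left) and MM (right). Ctnnb1 is the brightest line in every library, and Wnt10a and Wnt6 are bright only in No MM 3 and No MM 4.

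Of the 18 ligands, 6 did not pass the filter, and neither did Fzd10. Wnt3a, Wnt3 and Wnt8a never exceeded 2 counts in a library, and Wnt8b reached 4. Wnt2 and Wnt9b were at most 8 and 18 counts, and their highest values came from the same libraries as those of Wnt10a: Wnt9b had 7 and 18 counts in No MM 3 and No MM 4 and at most 4 elsewhere, and Wnt2 had 5 and 8 and at most 2 elsewhere. Fzd10 had between 2 and 14 counts. At this depth, 3 counts correspond to 0.0709 to 0.114 CPM, so these genes were at or near the limit of detection.

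Between MM and No MM, no member changed past the adjusted threshold in edgeR's quasi-likelihood test with Benjamini-Hochberg adjustment, and neither did any other gene (0% of 16186 tested, lowest adjusted p 0.315). At an unadjusted p under 0.05, 1 of the 35 tested members was higher in MM, against 3.81% of all genes, and 3 were lower, against 10.3%. The lower members were the ligands Wnt10a, Wnt6 and Wnt5b, and the higher one was Tcf7l2, a TCF factor. DESeq2 placed Wnt10a alone among members below its adjusted threshold, at an adjusted p of 0.016, against 1.15% of genes lower and 0.191% of genes higher. Without No MM 3 and No MM 4, the adjusted count was again 0 members and 0% of 16600 genes, and at an unadjusted p under 0.05 there was no member higher, against 2.51%, and 1 lower, Wnt5b, against 3.37%. Not one member had all MM libraries above or all below the No MM libraries, which occurred for 0.729% and 0.68% of genes.

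The direction of the members turned on the same pair of libraries. With all 10 libraries, the fitted fold change was negative for 14 members and positive for 21, with a median of 0.01 on the log2 scale, against −0.03 for all tested genes. Without No MM 3 and No MM 4 it was negative for 25 and positive for 10, with a median of −0.13, against −0.02 for all genes. The sign turned for 15 members, from positive to negative for 13 of them. Of all tested genes, 52.7% were negative in the first fit and 51.6% in the second. Negative values after leaving out the pair were seen for 10 of 12 ligands, 7 of 9 Frizzled receptors, 3 of 5 LRP and ROR receptors, 2 of 5 genes of the beta-catenin branch and 3 of 4 TCF and LEF factors, and they ranged down to −0.93 on the log2 scale.

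**Figure D2:**
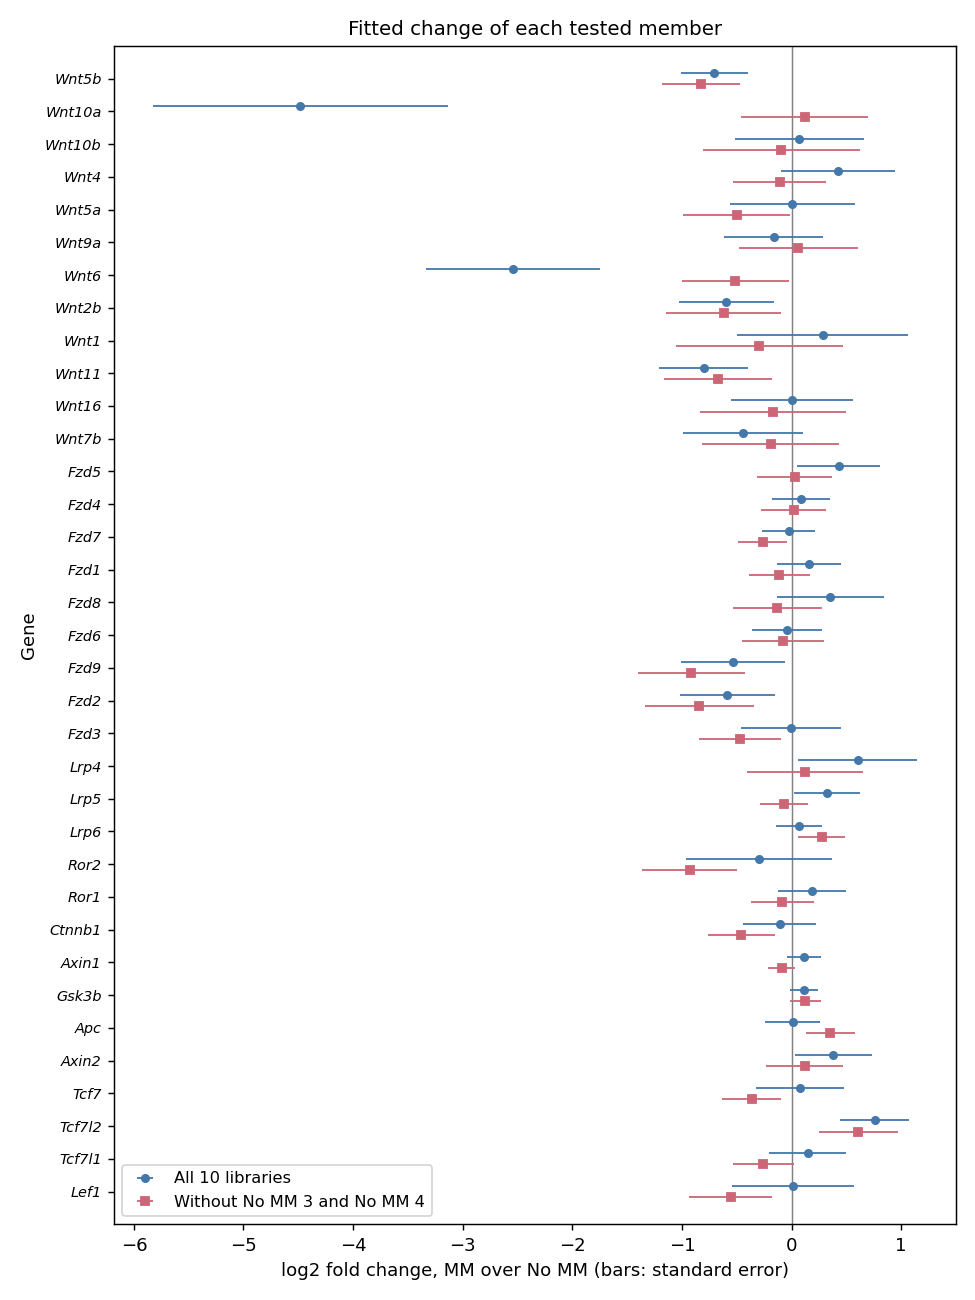
Fitted log2 fold change of MM over No MM for the 35 tested members, with standard errors as bars, from all 10 libraries (blue circles) and without No MM 3 and No MM 4 (red squares). Wnt10a and Wnt6 move toward 0 when the pair is left out, and Wnt5b stays below it.

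Wnt10a, a ligand best known from tooth and skin appendage development, had the fitted fold change farthest from 0 of the members in the fit of all 10 libraries. It was at 2.44, 0.957, 70.2, 93.3 and 0.686 CPM in No MM 1 to No MM 5, from 64, 34, 2173, 2571 and 28 reads. In MM 6 to MM 10 it was at 0.466, 2.22, 1.16, 1.82 and 1.82 CPM, from 18 to 82 reads. No MM 3 and No MM 4 stood at least 28.8-fold above each of the other libraries, which overlapped between the groups. The fitted fold change was −4.48 ± 1.35 on the log2 scale (SE, unadjusted edgeR p 0.00673, adjusted p 0.315) and 0.12 ± 0.58 without the pair (unadjusted edgeR p 0.841, adjusted p 0.949). The exact permutation test on log2 CPM, two-sided, gave p = 0.27. The smallest value that test can give with 5 mice against 5 is 0.00794.

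Wnt6, the ligand gene next to Wnt10a, had the same pair on top. It was at 0.495, 0.507, 3.97, 4.61 and 0.441 CPM in No MM 1 to No MM 5 and at 0.440, 0.486, 0.236, 0.441 and 0.104 CPM in MM 6 to MM 10. The reads behind these numbered 123 and 127 in No MM 3 and No MM 4 and between 4 and 18 in each of the others, where the groups overlapped. The fitted fold change was −2.54 ± 0.80 on the log2 scale (SE, unadjusted edgeR p 0.00866, adjusted p 0.315) and −0.51 ± 0.49 without the pair (unadjusted edgeR p 0.318). An exact permutation test, two-sided, gave p = 0.0159 with all 10 mice and p = 0.143 without the pair, where 0.0179 is the smallest it can give.

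**Figure D3:**
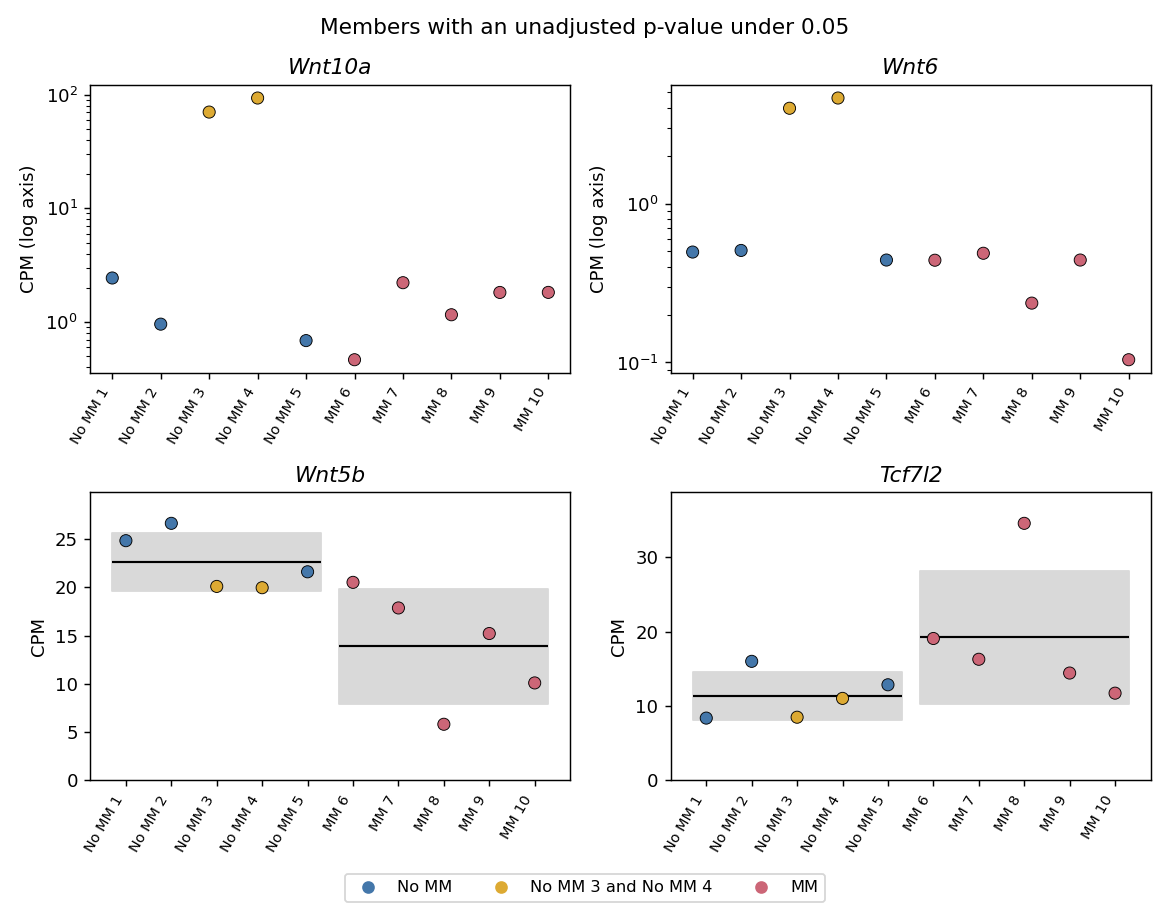
CPM of Wnt10a and Wnt6 (log axes) and of Wnt5b and Tcf7l2 (linear axes from 0) in each library, with No MM 3 and No MM 4 in yellow. In the lower panels black lines are group means and grey bands are 1 SD on either side. For Wnt10a and Wnt6 the groups overlap in the 8 libraries other than the pair, with MM 8 and MM 10 lowest for Wnt6. Wnt5b is lower in MM apart from MM 6, and MM 8 is highest for Tcf7l2.

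Wnt6 and Wnt10a lie head to tail on chromosome 1 of GRCm38, at chr1:74771892-74785322 and chr1:74791516-74804179, both on the plus strand and 6193 bases apart. Mean CPM in No MM 3 and No MM 4 was 56.6 times the mean of the other 8 libraries for Wnt10a and 10.9 times for Wnt6, which ranked 32 and 198 among the 16186 tested genes. The next gene upstream, Prkag3, a kinase subunit, had a ratio of 2.29 with overlapping libraries, and Cyp27a1, a sterol hydroxylase, had a ratio of 0.739. Ttll4, a tubulin ligase, had a ratio of 2.78, and Bcs1l, Rnf25 and Zfp142 farther upstream had ratios of 1.87, 1.69 and 1.63. In these 4 genes too both libraries were above the others, as they were in 24% of all tested genes. Stk36, between Rnf25 and Ttll4, had a ratio of 1.59 with overlapping libraries. Downstream, Ihh, a ligand of growing cartilage, and Nhej1 had ratios of 0.899 and 0.769, while Fev and Ccdc108 were at or near 0 in every library. In all, 14 genes overlap the 200 kb on either side.

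**Figure D4:**
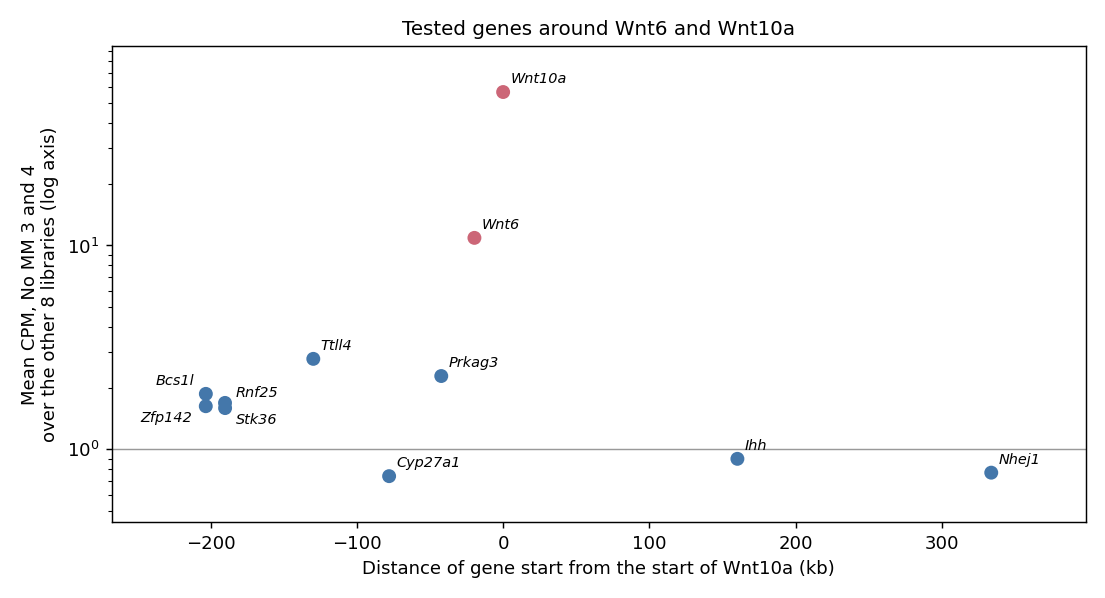
Mean CPM in No MM 3 and No MM 4 over the mean of the other 8 libraries (log axis) for the tested genes around Wnt10a, against the distance of each gene's start from that of Wnt10a in kilobases. Wnt10a and Wnt6 (red) stand at 56.6 and 10.9, and the other genes between 0.739 and 2.78.

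The other neighbouring ligand pair with detectable levels is Wnt10b and Wnt1 on chromosome 15, which lie 11706 bases apart. It did not follow Wnt6 and Wnt10a. Wnt1, the ligand of the human bone fragility syndromes, was at 0.381, 1.32, 0.129, 0.290 and 1.79 CPM in No MM 1 to No MM 5 and at 0.673, 1.03, 0.260, 2.54 and 0.338 CPM in MM 6 to MM 10. Its reads ranged from 4 to 92 per library, the groups overlapped and No MM 3 was lowest. Wnt10b, a ligand that favours bone over fat formation, was at 4.38, 6.17, 7.01, 10.3 and 24.6 CPM in No MM and at 23.4, 9.68, 2.41, 11.6 and 8.04 CPM in MM. For both genes the highest and lowest values were spread over the groups. Their fitted fold changes were 0.28 ± 0.78 and 0.07 ± 0.59 on the log2 scale (SE, adjusted edgeR p 0.889 and 0.969), and they became −0.30 and −0.09 without the pair.

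Wnt5b, a ligand mostly linked to signalling without beta-catenin, had the highest mean per length of the ligands over all 10 libraries and was the 1 member below an unadjusted p of 0.05 with and without No MM 3 and No MM 4. It was at 24.8, 26.6, 20.1, 20.0 and 21.6 CPM in No MM 1 to No MM 5 and at 20.5, 17.9, 5.81, 15.2 and 10.1 CPM in MM 6 to MM 10. MM 6 alone reached into the No MM range, and MM 8 was lowest. The fitted fold change was −0.70 ± 0.30 on the log2 scale (SE, unadjusted edgeR p 0.0405, adjusted p 0.340) and −0.83 ± 0.36 without the pair (unadjusted edgeR p 0.0463, adjusted p 0.643). An exact permutation test, two-sided, gave p = 0.0238 with all 10 mice and p = 0.0714 without the pair. With a term for Y-linked reads the value was −0.67 ± 0.32 (SE, unadjusted edgeR p 0.0621). Without MM 8 it was −0.51. Fbxl14 lies inside Wnt5b on the opposite strand, and whether the counting used strand is not given in the sources used here.

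None of the remaining tested ligands passed the unadjusted edgeR threshold. Wnt11, often placed with Wnt5a in branches without beta-catenin, ranged from 1.05 to 1.98 CPM in No MM and from 0.425 to 1.86 CPM in MM, and its fold change of −0.80 ± 0.41 had an adjusted edgeR p of 0.397. An exact permutation test, two-sided, gave p = 0.0476 for Wnt11 with all 10 mice and p = 0.161 without No MM 3 and No MM 4. Wnt4 was lowest in No MM 4 at 5.23 CPM and highest in MM 6 at 41.2 CPM. Wnt5a ran from 1.27 CPM in No MM 4 to 13.1 CPM in No MM 5, and its group means of 5.70 ± 4.502 and 5.74 ± 3.42 CPM (SD, n = 5 each) nearly coincided. Without No MM 3 and No MM 4 the No MM mean of Wnt5a was 8.05 ± 4.36 CPM (SD). Its fitted fold change was then −0.50 ± 0.49 on the log2 scale (SE, adjusted edgeR p 0.722). Wnt16, which bone-forming cells make and which restrains osteoclasts, had means of 1.16 ± 0.729 and 1.17 ± 0.714 CPM (SD, n = 5 each). Wnt2b, Wnt9a and Wnt7b stayed at or below 3.62 CPM throughout, with overlapping groups.

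None of the 9 tested Frizzled receptors, the 7-pass receptors that bind the ligands, passed the unadjusted threshold in either fit. Fzd5, the highest per length, was at 33.2, 35.7, 17.5, 14.01 and 45.5 CPM in No MM 1 to No MM 5 and at 70.8, 36.3, 22.0, 29.5 and 37.8 CPM in MM 6 to MM 10, so that No MM 3 and No MM 4 were below every other library. Its fold change of 0.43 ± 0.38 on the log2 scale (SE, adjusted edgeR p 0.614) became 0.03 ± 0.34 without the pair. Fzd4 and Fzd7 were more even, with group means of 13.9 ± 2.23 and 14.7 ± 6.03 CPM for Fzd4 and of 16.2 ± 5.77 and 16.0 ± 2.22 CPM for Fzd7 (SD, n = 5 each). The lowest values without the pair were those of Fzd9, a receptor tied to bone formation, at −0.91 ± 0.49, and of Fzd2 at −0.84 ± 0.49 on the log2 scale (SE, adjusted edgeR p 0.643 for both). Fzd9 ranged from 1.52 to 4.504 CPM in No MM and from 0.874 to 4.22 CPM in MM. Fzd1, Fzd3, Fzd6 and Fzd8 had overlapping groups, and of these Fzd8 was lower in No MM 3 and No MM 4, at 3.07 and 1.63 CPM, than in any other library.

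Among the co-receptors, Lrp4 had the highest level per length. It was at 148, 107, 41.9, 57.0 and 234 CPM in No MM 1 to No MM 5 and at 391, 209, 92.9, 80.5 and 119 CPM in MM 6 to MM 10. No MM 3 and No MM 4 were lowest, MM 6 was highest, and the other 7 libraries overlapped between the groups. The fitted fold change of Lrp4 was 0.60 ± 0.54 on the log2 scale (SE, adjusted edgeR p 0.620), and it became 0.12 ± 0.53 without the pair, 1.02 without No MM 5 and 0.09 without MM 6. Lrp5 and Lrp6, the signalling co-receptors of the canonical branch, split. Lrp5 was at 32.5 and 30.3 CPM in No MM 3 and No MM 4, below the 53.6 to 104 CPM of the other 8 libraries, whereas Lrp6 was at 63.6 and 62.6 CPM there, above all but MM 6 at 72.5 CPM. Without the pair, the 3 other No MM libraries and the MM libraries had means of 73.2 ± 1.33 and 70.7 ± 20.3 CPM for Lrp5 (SD, n = 3 and 5).

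Ror2 and Ror1, tyrosine kinase receptors of the branch without beta-catenin, were the lowest of the co-receptors per length. Ror2 was at 3.96, 2.03, 0.614, 0.254 and 4.17 CPM in No MM 1 to No MM 5 and at 2.12, 0.892, 1.47, 1.43 and 3.07 CPM in MM 6 to MM 10. Its lowest values were those of No MM 3 and No MM 4, and No MM 1 and No MM 5 were above every MM library. The fold change of −0.30 ± 0.67 on the log2 scale (SE, unadjusted edgeR p 0.665) became −0.93 ± 0.43 without the pair (unadjusted edgeR p 0.0599, adjusted p 0.643), the lowest of any member in that fit. Ror1 ranged from 1.05 to 2.74 CPM over the 10 libraries.

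In the beta-catenin branch, Ctnnb1 was at 950, 590, 436, 370 and 938 CPM in No MM 1 to No MM 5 and at 920, 570, 402, 498 and 656 CPM in MM 6 to MM 10. No MM 4 was lowest and the groups overlapped throughout. Its fold change was −0.11 ± 0.33 on the log2 scale (SE, adjusted edgeR p 0.901) and −0.46 ± 0.31 without the pair (adjusted edgeR p 0.650). The kinase gene Gsk3b was among the steadiest members, at 54.9 ± 7.09 CPM in No MM and 59.3 ± 2.54 CPM in MM (SD, n = 5 each), and Axin1 was nearly as even, between 38.5 and 60.1 CPM. Apc, a scaffold of the destruction complex, was highest in No MM 3 and No MM 4, at 77.1 and 72.5 CPM, against 28.8 to 63.7 CPM in the other 8 libraries.

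Axin2, the usual readout of canonical signalling, was at 1.87, 4.31, 2.84, 1.78 and 5.32 CPM in No MM 1 to No MM 5 and at 5.28, 4.76, 3.36, 4.13 and 3.49 CPM in MM 6 to MM 10. The MM libraries lay within the No MM range, and No MM 4 and No MM 1 were lowest. Its fold change was 0.38 ± 0.35 on the log2 scale (SE, adjusted edgeR p 0.632), and it became 0.12 ± 0.35 without No MM 3 and No MM 4.

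Tcf7l2, which encodes TCF4, was the one member higher in MM at an unadjusted p under 0.05. It was at 8.38, 16.0, 8.497, 11.0 and 12.9 CPM in No MM 1 to No MM 5 and at 19.1, 16.3, 34.6, 14.4 and 11.7 CPM in MM 6 to MM 10. MM 8 was far above the rest, and the groups overlapped from 11.7 to 16.0 CPM with or without it. The fitted fold change was 0.76 ± 0.31 on the log2 scale (SE, unadjusted edgeR p 0.0338, adjusted p 0.332), 0.61 ± 0.36 without No MM 3 and No MM 4 (unadjusted edgeR p 0.126) and 0.44 without MM 8. MM 8 was also the lowest library for Wnt5b. With a term for Y-linked reads, the unadjusted edgeR p was 0.0319 for Tcf7l2 (0.78 on the log2 scale), 0.0301 for Wnt6 (−2.15) and 0.0596 for Wnt10a (−4.10). An exact permutation test, two-sided, gave p = 0.0556 for Tcf7l2.

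The other TCF and LEF factors were lowest in No MM 3 and No MM 4. So were most osteoblast, B cell, T and NK cell, dendritic cell, neutrophil, erythroid and megakaryocyte markers. Tcf7 was at 6.72 and 16.3 CPM in No MM 3 and No MM 4 and at 17.6 to 40.5 CPM in the other 8. Lef1 was at 0.840 and 1.38 CPM there and at 1.89 to 6.57 CPM elsewhere, and Tcf7l1, mainly a repressor, was at 5.46 and 5.59 CPM against 6.92 to 16.7 CPM. Their fold changes of 0.07, 0.01 and 0.15 on the log2 scale became −0.36, −0.56 and −0.26 without the pair (adjusted edgeR p 0.665, 0.650 and 0.740).

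Counted over the members, No MM 3 and No MM 4 were both below every other library for 11 of 35, against 20.7% of all tested genes, and both above for 3 of 35, against 24%. Those below were Wnt4, Fzd5, Fzd8, Lrp4, Lrp5, Ror2, Ror1, Axin1, Tcf7, Tcf7l1 and Lef1, and those above were Wnt10a, Wnt6 and Apc. MM 6 was the highest library for 12 of the 35 members, 5 of them Frizzled receptors and 4 of them LRP or ROR receptors, against 13.6% of all genes. MM 6 also had the highest summed levels of the osteoblast, chondrocyte and adipocyte markers, at 47416, 1384 and 660 CPM, and the lowest neutrophil sum of the MM libraries, at 10355 CPM.

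A further 71 genes of the pathway were taken from lists by role, of which 69 were tested. None passed the adjusted threshold, and at an unadjusted edgeR p under 0.05 there were 3 higher and 1 lower, where 3.81% and 10.3% of all genes were called. Tnks, a tankyrase that destabilises Axin, and Bcl9, a co-activator of beta-catenin, were higher, at 0.45 ± 0.18 and 0.74 ± 0.26 on the log2 scale (SE, adjusted edgeR p 0.321 and 0.315), out of 23 signal transduction genes. Vangl2, a core gene of planar cell polarity, was higher at 0.63 ± 0.27 (SE, adjusted edgeR p 0.343), out of 11 genes. Kremen2, a partner of the Dkk inhibitors, was lower at −1.07 ± 0.48 (SE, adjusted edgeR p 0.353), out of 14 antagonist genes, from no more than 0.775 CPM in any library. No MM 3 and No MM 4 were below every other library for Bcl9 and above every other library for Kremen2. Without that pair the values were 0.29 for Tnks, 0.42 for Bcl9, 0.44 for Vangl2 and −0.67 for Kremen2, all at an unadjusted edgeR p above 0.05. None of the 2 Wnt secretion genes, the 8 tested genes of the R-spondin axis or the 11 tested target genes passed.

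Without No MM 3 and No MM 4, the genes past the unadjusted threshold were Amer1, which was higher, and Wif1, Sfrp4, Cby1 and Ccnd1, which were lower, all at an adjusted edgeR p of 0.643. Of all 16600 genes tested in that fit, 2.51% were higher and 3.37% lower at the same unadjusted threshold. Wif1, a secreted inhibitor that binds Wnt ligands, was at 171, 78.2, 15.5, 15.9 and 203 CPM in No MM 1 to No MM 5 and at 110, 53.0, 64.4, 51.6 and 86.6 CPM in MM 6 to MM 10. Its fold change was −0.41 ± 0.66 with all libraries and −1.06 ± 0.35 without the pair, on the log2 scale (SE). Sost, the gene of sclerostin, was at 144, 995, 158, 110 and 318 CPM in No MM 1 to No MM 5. In MM 6 to MM 10 it was at 265, 501, 68.3, 369 and 99.97 CPM. No MM 2 alone was above the highest MM library. The fold change of Sost was −0.40 ± 0.70 on the log2 scale (SE, adjusted edgeR p 0.813) and became −0.91 ± 0.73 without the pair (adjusted edgeR p 0.680).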

How the data were processed

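The data were 10 libraries of osteocyte RNA, 1 from each of 5 No MM and 5 MM mice, and groups were taken from the labels. The authors deposited read counts per gene, which were used here. The deposited signal holds those counts divided by 1 size factor per library, 0.765 to 1.195. The authors' FPKM values, log2 fold changes and p-values were deposited in the same table and were not used. The submitters' processing notes name FastQC 0.11.5 and STAR, while the STAR version, the counting tool and the annotation are not given in the sources used here. The kit keeps strand.

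Counts were analyzed in R 4.3.3 with edgeR 4.0.16 and limma 3.58.1. Genes were filtered with filterByExpr (16186 kept), scaled by TMM and tested with the quasi-likelihood test without covariates or pairing, with Benjamini-Hochberg adjustment over all tested genes and a threshold of 0.05. The study describes its own differential analysis as paired, but no label pairs the mice. CPM used TMM-scaled library sizes, and log2 CPM a prior count of 2. Single genes were compared by exact permutation over the 252 assignments of mice. Alternatives included DESeq2 1.42.0, and the steps were tested on simulated data. Intervals and detection limits cover counting error only.

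Members and lists were chosen with earlier results of these data known. Genes named in full were Wnt1, Lrp4, Axin2, those under an unadjusted p of 0.05 in either fit, those without overlap between groups and the 3 highest per length in each role. In each further pathway list up to 4 genes under that p in the fit of all libraries were named. Other values, including Wif1, Sfrp4, Cby1, Ccnd1, Amer1, Sost and the neighbours of Wnt10a, were chosen after the values were seen. All 42 member identifiers were found in GENCODE M21 (GRCm38), 31 with the same coordinates. Replicates within a group differed by more than sampling noise.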

Additional observations from a re-analysis of the deposited data

Results flagged for a closer look

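In 4 members the MM 6 library lay far from the other 4 MM libraries, with a gap above Dixon's 95% critical value of 0.71 for groups of 5. Wnt11 was at 1.86 CPM in MM 6 and at 0.425 to 0.827 CPM in the others. Fzd4 was at 25.1 CPM there and at 9.66 to 13.8 CPM in the others, Fzd8 at 13.9 CPM against 4.47 to 7.08 CPM, and Lrp6 at 72.5 CPM against 47.5 to 54.5 CPM. All 4 are raised in the same library, which also had the highest summed osteoblast, chondrocyte and adipocyte markers. For normally distributed values chance alone picks out about 1 in 20 groups, or 3.5 of the 70 groups of 5 examined, and the number found is close to that. The groups come from the same 10 libraries and are not independent, and CPM need not be normally distributed, so the comparison is rough. The part of these markers in the values was not tested.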

How the results depend on the processing

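With all 10 libraries, no alternative in edgeR brought a member or any other gene past the adjusted threshold. DESeq2 gave 32 genes higher and 192 lower, 1 of the lower ones a member (Wnt10a, −4.45 on the log2 scale), and at an unadjusted p under 0.05 it gave 968 genes and 5 further pathway genes higher. Moving the edgeR threshold to unadjusted p-values gave 617 genes higher and 1664 lower, 1 and 3 members, and 3 and 1 further pathway genes. Without No MM 3 and No MM 4, unadjusted calls lower in MM fell from 1664 to 560 genes and from 3 members to 1, members higher went from 1 to 0, and the further pathway genes went to 1 higher and 4 lower. Of the 15 members whose fitted fold change reversed without the pair, those named in full were Wnt10a (0.12), Wnt10b (−0.094), Wnt1 (−0.30), Lrp5 (−0.068), Axin1 (−0.092), Tcf7 (−0.36) and Tcf7l1 (−0.26). A term for libraries with Y-linked reads, chosen after seeing the data, gave 841 genes lower and 1 member lower (Wnt6). RLE size factors, upper quartile factors, no filter and a minimum of 10 counts in every library each gave 0 further pathway genes lower. The cause of these shifts was not tested.

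Leaving out 1 mouse at a time gave 0 adjusted calls in either direction throughout. At unadjusted p under 0.05 it gave 291 (without No MM 3) to 1276 (without No MM 5) genes higher and 939 (without No MM 4) to 2376 (without No MM 5) lower, 0 to 1 members higher and 2 to 5 lower (5 without MM 6), and 1 to 4 further pathway genes higher and 0 to 5 lower. Tcf7l2 lost its unadjusted call without No MM 1, No MM 3, No MM 4, MM 6 or MM 8, and Wnt5b without No MM 1, No MM 2, No MM 5, MM 8, MM 9 or MM 10. Leaving out 1 mouse at a time was summarised by gene for the 18 members named in full, and the sign of the fitted fold change turned for Wnt10b (−0.41 to 0.66), Wnt1 (−0.46 to 0.84), Fzd4 (−0.20 to 0.20), Fzd7 (−0.15 to 0.19), Lrp6 (−0.071 to 0.15), Ctnnb1 (−0.31 to 0.062), Tcf7 (−0.16 to 0.37) and Tcf7l1 (−0.036 to 0.36). No paired analysis was possible because no label pairs the mice and the groups share no number, although the study describes its own analysis as paired. Genes below about 3 counts are limited by depth.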
